A study of Homo sapiens with 6 samples.

Results

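The genes of the mitochondrial protein import machinery were examined in RNA-seq data from MDA-MB-231, a widely used human cell line of triple-negative breast cancer. The set was defined by gene symbol: every gene named TOMM or TIMM with a number, together with SAMM50, MTX1, MTX2, PAM16, DNAJC15, DNAJC19, GRPEL1, GRPEL2, CHCHD4, GFER, PMPCA and PMPCB. This rule found 37 of the 17631 genes with a value. Their products were placed by textbook location, with 13 counted at the outer membrane (TOMM34, which acts mainly in the cytosol, among them), 8 in the intermembrane space, 14 at the inner membrane including the import motor, and 2 in the matrix. The 6 libraries came from cells given vehicle (3 libraries) or 30 µM PDBAG1 (3 libraries) for 24 h. PDBAG1 is a cell-penetrating peptide built from a stretch of the metabolic enzyme GPD1, and the study describes the mitochondrial protein C1QBP as its target. The labels do not say whether the 3 libraries of a group came from separate cultures, so the p values measure only the spread between these libraries.

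Nearly all mitochondrial proteins are made in the cytosol and have to cross the mitochondrial membranes. The TOM complex of the outer membrane recognises precursors and passes them through its TOMM40 pore. From there the SAM complex inserts barrel proteins into the outer membrane, the oxidative folding pair CHCHD4 (MIA40) and GFER traps small cysteine-rich proteins in the intermembrane space, the small TIM chaperones carry hydrophobic precursors through that space, the TIM22 translocase inserts carrier proteins into the inner membrane, and the TIM23 translocase with its matrix-side motor pulls presequence proteins inward, where the peptidase PMPCA/PMPCB removes the presequence.

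The deposited values are TPM, a length-normalised unit in which every library has the same total. They keep no record of sequencing depth and give each gene's share of the library's mRNA. With bulk RNA, fewer cells of a type and less transcript per cell cannot be told apart. Each library held 12392 to 12611 genes at a TPM of at least 1. Over the tested genes, the SD of the log2 differences between a pair of libraries was 0.14 to 0.18 for libraries of the same group and 0.28 to 0.30 across the groups. The 4 markers fixed for this line (VIM, CD44, AXL and CAV1) were each above 1 TPM in every library. The labels give the source as breast cancer tissue beside the name of the line. Of the hormone receptors, PGR was under 1 TPM in every library and ESR1 was at 2.26 ± 0.24 TPM with vehicle (SD, n = 3). KRT8, listed as a luminal marker, was high in this line, at 578 ± 6.21 TPM with vehicle (SD, n = 3). Of 9 markers of leukocytes, endothelium, fibroblasts and adipocytes, 8 had a value, and 3 of them were under 1 TPM in every library. The summed level of these 8 was 262 to 275 TPM with vehicle and 324 to 345 TPM with PDBAG1, nearly all of it CD68, and none of the 8 was at 0 in every library. The endothelial marker PECAM1 was at 3.97, 4.08 and 3.78 TPM with vehicle and 7.87, 8.91 and 9.15 TPM with PDBAG1. PECAM1, CD68 and PDGFRB were called higher by limma over all genes (log2 fold changes 0.96, 0.31 and 0.31). The summed levels of the 4 line markers (5432 to 5616 and 7086 to 7199 TPM) and of the 6 luminal and receptor markers (605 to 621 and 708 to 726 TPM) were also higher with PDBAG1. The rise of the line markers was that of VIM and CD44, while AXL and CAV1 were called lower, with log2 fold changes of -0.26 and -0.30. Among the luminal and receptor markers only KRT8 was called higher, with a log2 fold change of 0.24. ESR1, ERBB2, EPCAM and GATA3 were not called, and PGR was too low to test. The part of these shifts in the results was not tested.

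The summed level of the import genes was lower with PDBAG1. The 37 genes together held 3708, 3814 and 3821 TPM in the vehicle libraries and 3346, 3298 and 3303 TPM in the PDBAG1 libraries, so that every treated library lay below every control library. This corresponds to 0.371% to 0.382% of the library with vehicle and 0.330% to 0.335% with PDBAG1. TOMM20L, a TOMM20-like gene, was listed at 0.66, 0.21 and 0.43 TPM with vehicle and 0.65, 0.42 and 1.14 TPM with PDBAG1, too low to test. The other 36 genes were tested on the log2(TPM + 1) scale within a limma fit over all 12582 genes that reached 1 TPM in no fewer than 3 libraries. A gene was called when its Benjamini-Hochberg adjusted p, over all these genes, was under 0.05. Fold changes on this scale slightly understate the change of low genes.

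These 36 genes were at 12.1 TPM or more in every library, so none entered through a single group. Of them, 21 were called lower, 1 was called higher and 14 were not called. Over all genes tested, 15.9% were called lower and 21.7% were called higher. Of all calls 42.2% were thus lower, a share that was 53.3% under quantile normalization, where the median of all genes was -0.02. The median log2 fold change of the 36 genes was -0.21, against 0.03 over all genes tested. None of the 36 changed by 1.5-fold, a size that 3.34% of all genes tested reached together with the adjusted p. In 24 of the 36 genes every PDBAG1 library lay below every vehicle library, and in 1 gene every PDBAG1 library lay above, beside 20.2% and 27.2% of all genes tested. The falls were therefore small and frequent, with log2 fold changes between -0.45 and -0.19 among the 21 genes called lower. The import transcripts were shorter than most, with a median of 1730 bases for the 36 genes against 3280 bases over the genes tested. With trends in transcript length and GC content removed from each library, 24 of the 36 genes were called lower and their median log2 fold change was -0.18. In that setting 2768 of the 12582 genes tested were called lower, against 2000 in the fit as reported.

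**Figure D1:**
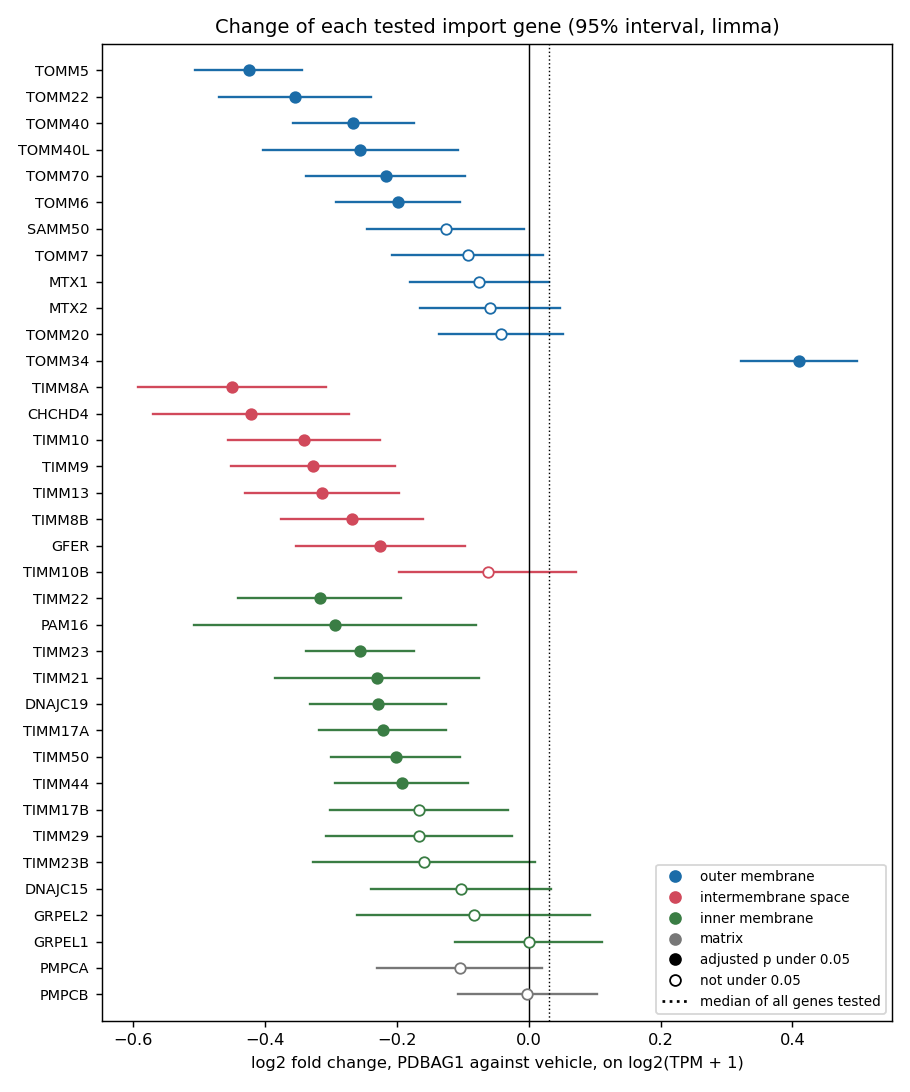
Log2 fold change of each of the 36 tested import genes (points) with its 95% interval from limma (lines), PDBAG1 against vehicle on log2(TPM + 1), grouped by the place of the gene product. Filled points had an adjusted p under 0.05. The 21 filled points left of 0 lie in the outer membrane, intermembrane space and inner membrane groups, and TOMM34 is the only filled point to the right of 0.

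The intermembrane space genes had the lowest median of the places, though single genes of the places overlapped in their changes. Of these 8 genes 7 were called lower and none higher, with a median log2 fold change of -0.32. The outer membrane genes had 6 of 12 tested called lower, 1 called higher and a median of -0.16, and the inner membrane genes had 8 of 14 called lower, none higher and a median of -0.20. The 2 matrix peptidase genes were not called, and their median was -0.05. Measured in each library against the vehicle mean, the median of the intermembrane space genes was -0.25, -0.32 and -0.29 in the PDBAG1 libraries. The matching medians were -0.18, -0.16 and -0.15 for the outer membrane genes and -0.16, -0.21 and -0.22 for the inner membrane genes. Each PDBAG1 library thus had its lowest median in the intermembrane space. The intermembrane space median was the lowest of the 3 in the fit as reported and in each of its 14 alternatives. In some of these alternatives the order was fixed in advance. A floor of 1 TPM in all libraries, the replicate block and leaving out the variance trend cannot change these medians. Leaving out the expression filter can move only that of the outer membrane. Without TOMM34 the outer membrane median of the 11 remaining tested genes was -0.20, equal at this precision to that of the inner membrane. The intermembrane space median was again the lowest in all 15, with the same limit. The differences between the places were not tested, since the members were chosen as a list.

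**Figure D2:**
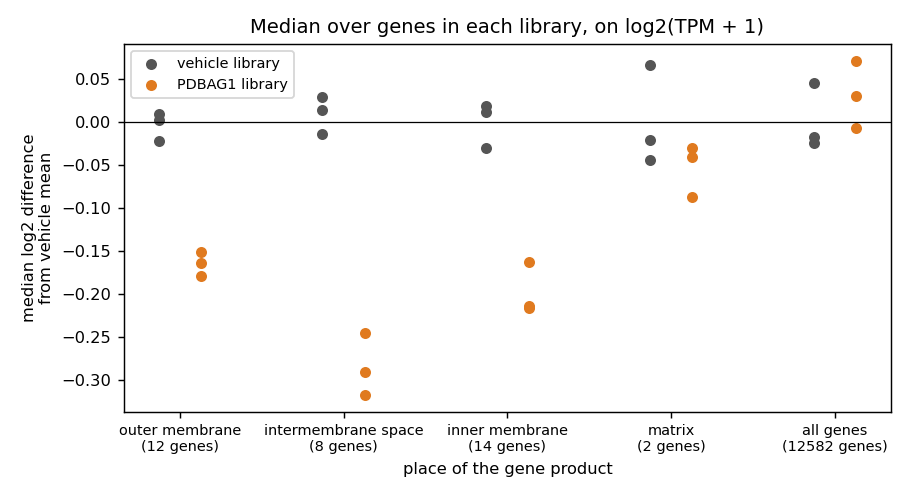
Median over genes of the log2 difference from the vehicle mean, on log2(TPM + 1), in each library (points), by place of the gene product and over all genes tested. PDBAG1 libraries sit between -0.32 and -0.25 for the intermembrane space genes, between -0.18 and -0.15 for the outer membrane genes, between -0.22 and -0.16 for the inner membrane genes, and between -0.01 and 0.07 for all genes.

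At the outer membrane 5 of the 7 TOM complex genes and none of the 3 SAM complex genes were called lower, beside 15.9% of all genes tested. TOMM5, a small subunit that steadies the TOMM40 pore, was among the most abundant import transcripts, at 414, 431 and 416 TPM with vehicle and 313, 322 and 303 TPM with PDBAG1. The groups did not overlap, and the log2 fold change was -0.42 (standard error, SE, 0.04, limma adjusted p = 1.53e-06). TOMM22, the central receptor that links the pores and docks precursors, was at 87.7, 88.6 and 93.9 TPM with vehicle and 71.6, 65.3 and 73.9 TPM with PDBAG1. All 3 treated libraries were lower, with a log2 fold change of -0.35 (SE 0.05, limma adjusted p = 0.000183). TOMM40, the pore itself, was at 220, 225 and 226 TPM with vehicle and 195, 177 and 187 TPM with PDBAG1, again without overlap, and its log2 fold change was -0.27 (SE 0.04, limma adjusted p = 0.000301).

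The most abundant import transcript was that of TOMM6, another small TOM subunit, at 449, 493 and 499 TPM with vehicle and 428, 420 and 406 TPM with PDBAG1. It fell by 0.20 on the log2 scale (limma adjusted p = 0.00296), and by 0.08, still called, with length and GC trends removed. TOMM6 has a transcript of 565 bases, and another protein-coding gene on the same strand overlaps it, so that the counting of its reads is uncertain. TOMM70, the receptor for carrier precursors, and TOMM40L, a paralogue of the pore, were also called lower, with log2 fold changes of -0.22 and -0.26. TOMM40L lost its call without vehicle replicate 2 (log2 fold change -0.21, adjusted p = 0.0609).

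The presequence receptor TOMM20 and the small subunit TOMM7 were not called. TOMM20 was at 204, 202 and 197 TPM with vehicle and 185, 195 and 205 TPM with PDBAG1, so the groups overlapped, and the 95% interval of its log2 fold change ran from -0.14 to 0.05. The 95% interval of TOMM7 ran from -0.21 to 0.02. TOMM20 and TOMM22, the TOM receptors for presequence proteins, were thus at 201 ± 3.78 and 90.1 ± 3.32 TPM with vehicle and at 195 ± 9.99 and 70.3 ± 4.46 TPM after PDBAG1 (SD, n = 3 each). The SAM complex genes were not called either. SAMM50, its barrel-forming core, was at 57.2, 62.3 and 61.6 TPM with vehicle and 52.5, 54.8 and 58.5 TPM with PDBAG1, and its groups overlapped. The SAMM50 difference was -0.13 on the log2 scale (limma adjusted p = 0.0894), and it passed the threshold when libraries were scaled by the median of ratios (-0.16), without vehicle replicate 1 (-0.16) and without PDBAG1 replicate 3 (-0.17).

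The peripheral SAM subunits MTX1 and MTX2 (metaxins) were near their vehicle level. MTX1 was at 57.7, 55.9 and 55.5 TPM with vehicle and 55.5, 52.7 and 52.3 TPM with PDBAG1 (log2 fold change -0.07, 95% interval -0.18 to 0.03). MTX2 was at 62.7, 59.7 and 60.5 TPM with vehicle and 56.0, 59.9 and 59.8 TPM with PDBAG1 (log2 fold change -0.06, 95% interval -0.16 to 0.05). For MTX1 the 3 PDBAG1 values lay just under the lowest vehicle value, and for MTX2 the groups overlapped. MTX1 passed the threshold with length and GC trends removed, at a log2 fold change of -0.15.

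TOMM34 stood apart as the only import gene called higher. It encodes a co-chaperone of HSP70 and HSP90 that acts mainly in the cytosol, on precursors before they reach the outer membrane. Its level was 176, 180 and 185 TPM with vehicle and 240, 232 and 248 TPM with PDBAG1. All 3 treated libraries were above all 3 controls, and the log2 fold change was 0.41 (SE 0.04, limma adjusted p = 4.46e-06). TOMM34 (chromosome 20, 44942130 to 44960397, minus strand, GRCh38, GENCODE v44) overlaps PABPC1L on the opposite strand, and whether counting used strand is not given in the sources used here. Of the 37 import genes, 16 overlap another protein-coding gene, 7 of them on the same strand and 13 on the opposite strand, some on both. The 7 on the same strand are the called genes TOMM5, TOMM6 and PAM16 and the uncalled genes TIMM10B, TIMM23B, SAMM50 and PMPCB. Their reads cannot be told apart with certainty. If counting ignored strand, the same holds for overlaps on the opposite strand. These include the called genes TIMM9, TIMM13, TIMM8B, TIMM22 and TOMM40L. Over the 14 alternatives the log2 fold change of TOMM34 was 0.38 to 0.43, and it was called in each.

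**Figure D3:**
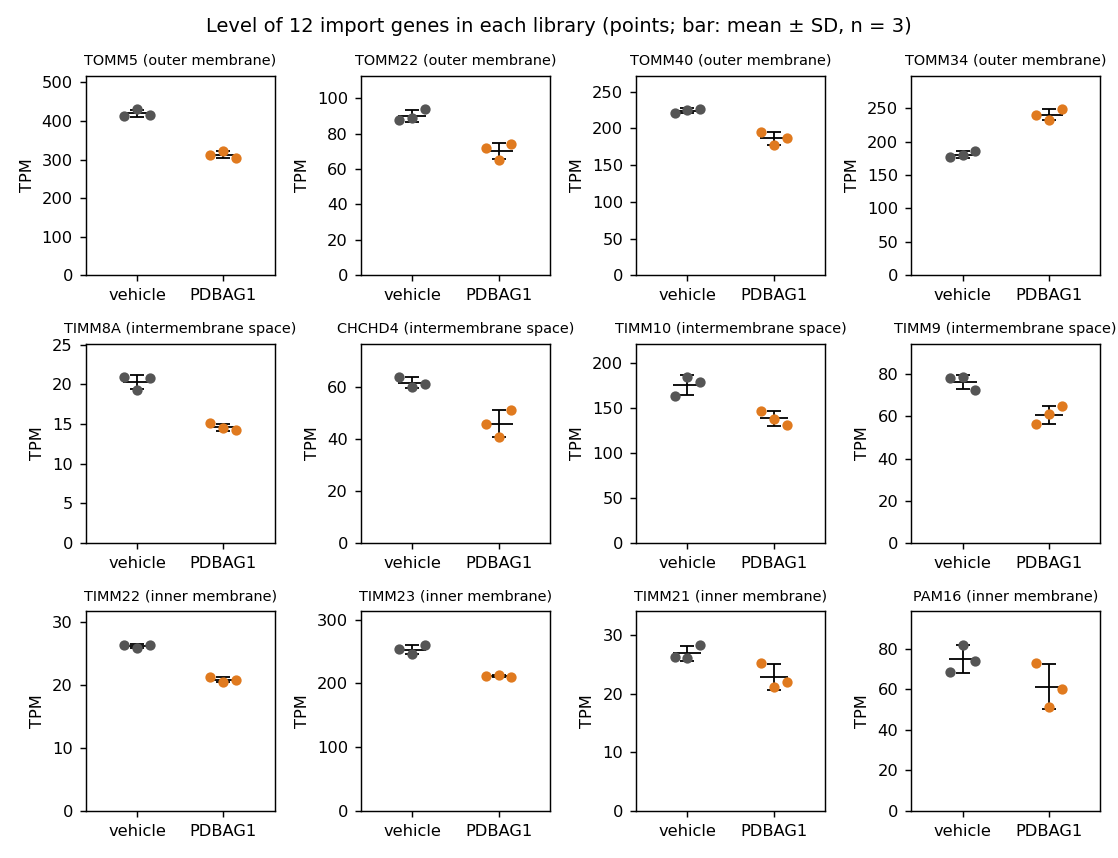
TPM in each library (points, with mean ± SD, n = 3 per group) for the 4 called genes with the largest change at each of the outer membrane, intermembrane space and inner membrane, with y axes starting at 0. In 11 of the 12 genes the groups do not overlap, with TOMM34 higher and the others lower with PDBAG1, while the PAM16 libraries overlap.

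In the intermembrane space the small TIM chaperones and the disulfide relay were called lower together, with TIMM10B as the exception. TIMM8A, which pairs with TIMM13 and is mutated in a deafness-dystonia syndrome, was at 21.0, 19.3 and 20.8 TPM with vehicle and 15.1, 14.5 and 14.2 TPM with PDBAG1. Its log2 fold change of -0.45 was the largest fall of all 36 tested genes in the fit as reported (SE 0.07, limma adjusted p = 0.000145). This rank was not kept in every alternative. With length and GC trends removed TIMM8A was at -0.36, beside -0.38 for TIMM13 and -0.37 for CHCHD4. Without PDBAG1 replicate 3 it was at -0.43, beside -0.50 for CHCHD4. TIMM13 was also lower, at 88.5, 96.5 and 96.6 TPM with vehicle and 79.97, 75.0 and 71.2 TPM with PDBAG1, and its log2 fold change was -0.31.

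TIMM9 and TIMM10 form the main hexamer that shields carrier precursors. TIMM10, the most abundant transcript of this place, was at 164, 185 and 179 TPM with vehicle and 147, 138 and 131 TPM with PDBAG1 (log2 fold change -0.34, SE 0.05, limma adjusted p = 0.000249). TIMM9 was at 78.0, 78.7 and 72.6 TPM with vehicle and 56.3, 61.2 and 64.9 TPM with PDBAG1 (log2 fold change -0.33, SE 0.06, limma adjusted p = 0.000588). In neither gene did the groups overlap, and the paired partners had falls of nearly the same size. TIMM10B, which joins this hexamer to the TIM22 translocase, was at 19.7, 18.8 and 19.8 TPM with vehicle and 19.0, 18.2 and 18.5 TPM with PDBAG1. Its groups overlapped, and the 95% interval of its log2 fold change was -0.20 to 0.07, which does not reach the estimates for TIMM9 and TIMM10. Another protein-coding gene overlaps TIMM10B on the same strand, so the counting of its reads is uncertain.

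CHCHD4, the oxidoreductase that traps incoming cysteine-rich proteins by disulfide transfer, was at 64.0, 59.9 and 61.1 TPM with vehicle and 45.9, 40.9 and 51.1 TPM with PDBAG1. The log2 fold change was -0.42 (SE 0.07, limma adjusted p = 0.000354), with the treated libraries more spread than the controls but all below them. GFER, the sulfhydryl oxidase that reoxidises CHCHD4, was at 23.2, 24.8 and 23.9 TPM with vehicle and 20.4, 20.4 and 20.2 TPM with PDBAG1. The treated libraries were nearly identical, and the log2 fold change was -0.22 (limma adjusted p = 0.00897). GFER (chromosome 16, 1984193 to 1987749, plus strand) overlaps no other protein-coding gene, and CHCHD4 (chromosome 3, 14112077 to 14124870, minus strand) overlaps no other annotated gene.

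The promoters of the import genes were searched for the cores of factors known to act on nuclear genes for mitochondria. RefSeq promoters (GRCh38.p14, 250 bases before to 50 after the start, the first listed start of a gene with several) were matched by gene identifier for 34 of the 37 genes, all but GRPEL1, TIMM8B and TOMM5. GCATGCGC, a core of the NRF1 motif, was found on either strand in 5 of the 34, namely CHCHD4, PAM16, TIMM9, TIMM10B and TOMM7. It was present in 5.56% of the 10296 promoters matched for tested genes and in 3.27% of all 27305. Of these 5 genes 3 were called lower (CHCHD4, TIMM9 and PAM16) and 2 were not called. Beside them, 21 of all 36 tested import genes (58.3%) were called lower. The call of PAM16 was lost in 8 of the 14 alternatives. CCGGAAGT, a core of ETS-family motifs, was in 8 of the 34, against 9.07% of the promoters of tested genes. AAGATGGC, a YY1 core, was in 3 against 5.43%, and ACGTG, a core of the hypoxia response element, was in 10 against 26.8%. Called lower were 3 of the 8 genes with the ETS core, 2 of the 3 with the YY1 core and 7 of the 10 with the hypoxia core. The share beside them is the same 58.3%. None of the 4 cores contains another. A match describes letters in a window and does not show that a factor binds there.

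The NRF1 core matches upstream of the start are shown because they include the most changed gene of the disulfide relay and a member of the TIMM9-TIMM10 pair. This choice followed the changes of the genes, and a link between the core and the falls was not tested. Each match is written 5′ to 3′ on the gene's strand with the core in capitals. The stretches are chr3:14124993-14125040 for CHCHD4, chr14:58427632-58427679 for TIMM9, chr16:4351339-4351386 for PAM16 and chr7:22822945-22822992 for TOMM7, all on the minus strand. PAM16 carries the core in the reverse orientation, and in CHCHD4 the core also reads in reverse from 2 bases further upstream, since the flanking letters make it palindromic. The PAM16 stretch is upstream of the RefSeq start used, but lies inside the GENCODE span of the gene (4331549 to 4355607). The match in TIMM10B lies at the start site and is not shown.
CHCHD4: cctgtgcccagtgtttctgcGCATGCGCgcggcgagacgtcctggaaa
TIMM9: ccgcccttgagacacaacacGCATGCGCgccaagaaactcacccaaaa
PAM16: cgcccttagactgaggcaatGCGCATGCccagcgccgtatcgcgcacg
TOMM7: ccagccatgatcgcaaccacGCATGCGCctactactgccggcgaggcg
TOMM7, whose level did not pass the test, thus holds the same core as CHCHD4 and TIMM9, whose levels fell.

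At the inner membrane the channel and receptor of the TIM23 translocase were called lower. TIMM23, the channel-forming subunit and the most abundant of this place, was at 253, 245 and 261 TPM with vehicle and 212, 213 and 210 TPM with PDBAG1. Without overlap, it changed by -0.26 on the log2 scale (SE 0.04, limma adjusted p = 0.00016). TIMM23B, a near-identical copy elsewhere on chromosome 10, was at 15.8, 14.1 and 14.8 TPM with vehicle and 12.1, 14.4 and 13.3 TPM with PDBAG1 and was not called, and reads shared between the copies make the split of their levels uncertain. TIMM50, the receptor on the intermembrane space side, fell by 0.20 on the log2 scale (limma adjusted p = 0.00349). TIMM21, which couples the translocase to the TOM complex and to respiratory chain complexes, was at 26.3, 26.1 and 28.4 TPM with vehicle and 25.3, 21.2 and 22.1 TPM with PDBAG1 (log2 fold change -0.23, SE 0.07, limma adjusted p = 0.0218). Its groups did not overlap, but the call was lost at -0.19 without vehicle replicate 3, at -0.18 without PDBAG1 replicate 2, at -0.21 without PDBAG1 replicate 3, without the expression filter, and with length and GC trends removed.

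The TIM22 translocase inserts carriers and the TIM17/TIM22/TIM23 proteins themselves. TIMM22, its channel, was without overlap between the groups, at 26.4, 25.9 and 26.4 TPM with vehicle and 21.3, 20.5 and 20.9 TPM with PDBAG1. Its log2 fold change was -0.32 (SE 0.06, limma adjusted p = 0.000741). Its partner TIMM29 had a log2 fold change of -0.17 and an adjusted p of 0.061, without overlap between the groups.

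In the import motor, TIMM44 anchors mitochondrial HSP70 at the channel, PAM16, DNAJC19 and DNAJC15 are J-proteins or J-like regulators of that HSP70, and GRPEL1 and GRPEL2 are its nucleotide exchange factors. TIMM44 was called lower (log2 fold change -0.19, limma adjusted p = 0.00566). PAM16 was at 68.5, 82.1 and 74.0 TPM with vehicle and 73.0, 51.1 and 60.1 TPM with PDBAG1, so that its groups overlapped. Its log2 fold change was -0.29 (SE 0.10, limma adjusted p = 0.0316), and the call was lost at -0.23 without vehicle replicate 2, at -0.30 without vehicle replicate 3, at -0.17 without PDBAG1 replicate 2 and at -0.29 without PDBAG1 replicate 3, and in 8 of the 14 alternatives in all. PAM16 is also overlapped by the readthrough gene CORO7-PAM16, which can share its reads.

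DNAJC19 was at 52.5, 51.4 and 52.0 TPM with vehicle and 43.4, 45.1 and 44.2 TPM with PDBAG1 (log2 fold change -0.23, limma adjusted p = 0.00217). Its lower-expressed relative DNAJC15 was at 16.2, 16.3 and 16.5 TPM with vehicle and 15.02, 15.2 and 15.2 TPM with PDBAG1. This small separation without overlap gave a log2 fold change of -0.10, which was not called (95% interval -0.24 to 0.03). GRPEL1 was at 55.9, 52.0 and 57.4 TPM with vehicle and 56.3, 54.5 and 54.3 TPM with PDBAG1, and the 95% interval of its log2 fold change was -0.11 to 0.11. GRPEL2 was at 18.8, 15.9 and 15.8 TPM with vehicle and 14.4, 16.7 and 16.2 TPM with PDBAG1 (95% interval -0.26 to 0.09). The groups of both exchange factors overlapped.

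The matrix processing peptidase removes presequences once they enter. Its substrate-binding subunit PMPCA was at 36.9, 33.9 and 34.2 TPM with vehicle and 33.8, 31.2 and 32.4 TPM with PDBAG1 (log2 fold change -0.10, limma adjusted p = 0.178). Its catalytic subunit PMPCB was at 69.7, 67.0 and 64.3 TPM with vehicle and 65.3, 66.3 and 69.1 TPM with PDBAG1, with a 95% interval of -0.11 to 0.10. PMPCA, with values close to the vehicle range, passed the threshold with length and GC trends removed, at a log2 fold change of -0.15.

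Several steps are served by a pair of paralogues or partners, and the share within a pair does not depend on the total of a library. For 5 such pairs the share was compared by a two-sided exact permutation test over the 6 libraries, which cannot give a p under 0.1. TIMM8A made up 15.95%, 14.3% and 14.3% of TIMM8A plus TIMM8B with vehicle and 13.3%, 12.9% and 13.2% with PDBAG1. This separation without overlap had an exact permutation p of 0.1 (0.25 adjusted over the 5 pairs), with both genes called lower and TIMM8B at 110, 116 and 124 TPM with vehicle and 98.8, 97.8 and 93.5 TPM with PDBAG1. DNAJC15 made up 23.6%, 24.1% and 24.1% of DNAJC15 plus DNAJC19 with vehicle and 25.7%, 25.2% and 25.6% with PDBAG1. Its exact permutation p was also 0.1 (0.25 adjusted), the smallest the design allows.

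The other 3 shares overlapped between the groups. TIMM17A and TIMM17B are alternative subunits of the TIM23 translocase, and TIMM17A held 66.0% ± 2.47 of the pair in the vehicle group and 65.2% ± 1.51 in the PDBAG1 group (SD, n = 3 each; exact permutation p = 0.7, adjusted 0.875). TIMM17A itself was at 126, 125 and 120 TPM with vehicle and 101, 110 and 107 TPM with PDBAG1 and was called lower (log2 fold change -0.22, limma adjusted p = 0.00163). TIMM17B was at 57.2, 65.9 and 68.1 TPM with vehicle and 58.3, 57.0 and 54.3 TPM with PDBAG1, with a log2 fold change of -0.17 and an adjusted p of 0.0515. GRPEL2 made up 23.4% ± 1.80 of GRPEL1 plus GRPEL2 in the vehicle group and 22.3% ± 1.63 in the PDBAG1 group (SD, n = 3 each; exact permutation p = 0.4, adjusted 0.667). MTX1 made up 48.0% ± 0.27 and 47.7% ± 1.78 of MTX1 plus MTX2 (SD, n = 3 each; exact permutation p = 1, adjusted 1).

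Across the 36 tested import genes, transcript length and log2 fold change had a Spearman rho of 0.38, given as a description over genes that share the same libraries. Short transcripts included large falls, such as TOMM5 (706 bases) and TIMM10 (668 bases), and small ones, such as TOMM7 (434 bases). The intermembrane space genes had a median length of 1342.5 bases, the outer membrane genes 1730 bases and the inner membrane genes 2169 bases. With length and GC trends removed the medians of the 3 places were -0.29, -0.13 and -0.18 in that order.

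Further import genes outside the symbol rule were read from a list of 15. Of these, 4 were called lower, beside 15.9% of all genes tested, none was called higher, beside 21.7%, and the median log2 fold change was -0.05. IMMP2L and IMMP1L, the inner membrane peptidases, had log2 fold changes of -0.41 and -0.29. IMMP2L was at 6.01, 6.43 and 6.38 TPM with vehicle and 4.25, 4.17 and 5.05 TPM with PDBAG1, without overlap. IMMP1L was at 17.2, 20.6 and 22.7 TPM with vehicle and 15.5, 15.8 and 17.6 TPM with PDBAG1, and its groups overlapped. HSPA9, the mitochondrial HSP70 that drives the motor, was at 264, 251 and 254 TPM with vehicle and 219, 222 and 238 TPM with PDBAG1 (log2 fold change -0.18, limma adjusted p = 0.00511). AGK, a kinase that is also part of the TIM22 translocase, was the other gene called lower (log2 fold change -0.17), and was named after its value was seen.

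The cysteine-rich proteins that CHCHD4 imports were read from a list of 20 genes. Of these 6 were called lower and none higher, beside 15.9% and 21.7% of all genes tested, and the median log2 fold change was -0.10. The largest called change was that of CMC4, at 14.2, 13.9 and 12.3 TPM with vehicle and 10.0, 10.1 and 10.0 TPM with PDBAG1 (log2 fold change -0.39). TRIAP1, which shuttles phospholipids in the intermembrane space, was at 64.6, 65.3 and 67.5 TPM with vehicle and 50.2, 54.5 and 54.5 TPM with PDBAG1 (log2 fold change -0.31). COA4, a cytochrome c oxidase assembly factor, was at 279, 280 and 286 TPM with vehicle and 237, 223 and 224 TPM with PDBAG1 (log2 fold change -0.30, limma adjusted p = 4.33e-05). COX6B1 and CHCHD2, the most abundant of this list and named after their values were seen, had log2 fold changes of -0.04 and -0.04 and were not called.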

How the data were processed

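RNA was taken from MDA-MB-231 cells after 24 h with vehicle or 30 µM PDBAG1, with 3 libraries per group named in the sample titles. By the paper's methods, mRNA libraries were sequenced on a BGISEQ-500 and mapped with HISAT2 to GRCh38.p13. The submitters' processing notes name HISAT2 2.0.4, Bowtie2 2.2.5, RSEM 1.2.12 and GRCh38.p12. The methods mention FPKM, but the deposited files hold TPM with 2 decimals, with the same total in every library. The annotation and the strand setting are not given in the sources used here. TPM keep no depth, so no counting error could be given.

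Genes reaching 1 TPM in no fewer than 3 libraries entered the test on log2(TPM + 1) with limma 3.58.1 in R 4.3.3 (lmFit and eBayes with a variance trend), and adjusted p values are Benjamini-Hochberg values over 12582 genes. Intervals are the model's 95% intervals. The fit was tested on simulated data. Positions, lengths and GC content are those of GENCODE v44, matched by Ensembl identifier for 17212 of 17631 genes. Shares of pairs were compared by exact permutation tests (scipy 1.17.1). The members and lists were chosen with earlier results of these data known. Values in every library were given, by rule, for the 4 called members of largest change and the most abundant member of each place, the matrix subunits and the 5 pairs, and from each other list for the 3 called genes of largest change. Further genes with values were chosen afterwards for their role.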

Additional observations from a re-analysis of the deposited data

How the results depend on the processing

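The alternatives were no expression filter, a floor of 1 TPM in all libraries, a pseudocount of 0.1, median-of-ratios scaling, quantile normalization, removal of length and GC trends, no variance trend, the replicate number as a block, and each library left out in turn. Over these 14 alternatives 19 to 24 import genes were called lower, and TOMM34 was the only one called higher in each. The number of all genes called lower varied too. It ran from 1500 of 12471 tested, without PDBAG1 replicate 2, to 2768 of 12582, with the trends removed. Of the 22 called genes, 19 kept call and direction in all 14, and PAM16, TIMM21 and TOMM40L did not. With the replicate block 21 genes were called lower, as without it, and 3 of the other import genes in place of 4. Deviations from the group means were not shared by libraries of 1 number (correlation -0.21, 0.01 and -0.08), so the numbers were not treated as pairs.

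The median of the import genes was -0.24 under median-of-ratios scaling, -0.18 with length and GC trends removed, and -0.22 to -0.19 with a library left out. For the outer membrane it was -0.13 without the expression filter, which adds TOMM20L, -0.20 under median-of-ratios scaling, -0.13 with the trends removed and -0.18 to -0.14 with a library left out. Median-of-ratios scaling gave -0.35 for the intermembrane space and -0.23 for the inner membrane, and leaving out a library gave -0.33 to -0.29 for the former. It shifted the median of all genes from 0.03 to -0.0005, and the share of calls that were lower was 42.2% as reported, 50.6% under it, 53.3% under quantile normalization and 50.2% with the trends removed. Leaving TOMM34 out of the outer membrane, an alternative chosen after seeing the data, gave -0.20. The other import genes called lower numbered 6 under median-of-ratios scaling and under quantile normalization, 5 with the trends removed, 2 without the variance trend and 2 to 4 with a library left out. Of all 12582 genes tested, median-of-ratios scaling called 2620 lower, quantile normalization 2742 and removal of the trends 2768. Without the variance trend 1620 were called lower, against 2000 in the fit as reported.

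Signs turned only for values that were not called. With the trends removed TOMM7 was at 0.024 and MTX2 at 0.022. GRPEL1 was at -0.034 under median-of-ratios scaling, -0.011 under quantile normalization and -0.040 to 0.030 with a library left out, PMPCB at -0.031 to 0.026, the TIMM17A share difference at -1.91 to 0.52 percentage points and the MTX1 share difference at -1.32 to 0.26. The cause of these shifts was not tested. Without counts, depth sets no stated limit, and 3 libraries per group set the precision.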
